A study of Mus musculus with 3 samples.

Results

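Dido1, the gene altered in this experiment, was examined with 5 relatives: Phf3, Spocd1, Tcea1, Tcea2 and Tcea3. The members were taken by gene name among the non-control probes of the arrays, which gave 6 of 30175 gene names and 10 of 39429 probes, and every one of their probes was used. RNA came from mouse embryoid bodies, floating aggregates in which embryonic stem cells form many cell types, cultured for 10 days in suspension without LIF, the cytokine that holds stem cells undifferentiated. The first group, labelled Dido3deltaCT+HADido3CT and called mutant+CT here, makes a Dido3 protein without its C-terminal part and overexpresses that missing part, which exon 16 encodes. The other group is the wild-type control, kept in the same conditions. There were 3 biological replicates of either group and 3 two-colour arrays, each with 1 mutant+CT and 1 wild-type RNA, so that every ratio below compares RNAs on the same glass. Mutant+CT RNA was in Cy3 on replicates 1 and 3 and in Cy5 on replicate 2. The labels give neither the mouse strain nor the promoter of the construct, and do not say whether replicates came from separate clones. No group carried the truncation or the construct by itself, so the effects of the 2 cannot be told apart. Because the samples are bulk RNA, fewer cells of a type and less RNA per cell cannot be told apart either.

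As background, Dido1 makes 3 proteins that share their N-terminal part, which holds a PHD finger that binds histone H3 trimethylated at lysine 4. The shortest, Dido1, stops soon after it. Dido2 and Dido3 go on with a TFIIS-like domain and a SPOC domain, modules that meet the elongating RNA polymerase II, and Dido3 alone has the long C-terminal region encoded by exon 16. In RefSeq, transcript variant 1 is known to encode the short protein, variant 2 Dido2 and variant 3 Dido3. The array files name the variants alone, so the protein names given with them below are background and not a result. Phf3 and Spocd1 carry the same kind of TFIIS-like and SPOC domains, while Tcea1, Tcea2 and Tcea3 encode TFIIS itself, which helps a stalled polymerase to cut its RNA and restart.

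The array holds 4 Dido1 probes of 60 bases on the minus strand of chromosome 2, in mm9 coordinates. They are shown because each reports on other transcripts of the gene, and the finding lies in how they differ. In the order of transcription, probe A_55_P2430472 at chr2:180419747-180419806 matches the RefSeq transcripts of all 3 variants and is called the shared probe. Probe A_52_P226127 at chr2:180415861-180415920 matches variant 1, A_66_P128564 at chr2:180405604-180405663 variant 2, and A_51_P336385 at chr2:180393086-180393145 variant 3. The shared probe is given whole and the other 3 by their first 30 bases, 5′ to 3′ on the transcript's strand:
shared: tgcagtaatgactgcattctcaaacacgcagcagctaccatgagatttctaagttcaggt
variant 1: aggaaaccactcctccacatgcaggtgatt
variant 2: tcaacacgatttggaaaggatttattaata
variant 3: gtaagaaggctggctaacgtatctgactgt
No other probe of the array had the sequence of a member probe, and no pair of member probes shared a run of over 10 bases. Exon coordinates of mm9 were not used here. The variant 3 probe is the most 3′ of the set, but whether it lies inside exon 16, inside the deleted part, or in the construct was not determined, so it does not check the labels.

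Of the 10 member probes, 8 were well above background on all 3 arrays in both groups. They were tested among the 26317 probes that met this in at least 1 of the groups. A single one, Dido1 variant 2, passed limma over all of them with Benjamini-Hochberg adjustment as higher and 0 as lower, where 0.331% of kept probes passed as higher, 0.106% as lower and 0.437% in either direction. An unadjusted p under 0.05 was reached by 5 of the 8, against 16.5% of kept probes. At 5 of the 8, the mutant+CT and wild-type levels did not overlap, against 16.7% of kept probes. The shared Dido1 probe, Dido1 variant 2 and Tcea3 lay wholly above wild type in mutant+CT (9.71% of kept probes) and Dido1 variant 1 and Tcea2 wholly below it (6.94%). The sign was the same on every array for 6 of the 8, those 5 and Tcea1, where 20.4% of kept probes were higher and 18.1% lower on every array. Ratios are log2 of mutant+CT over wild type, given as mean ± SD over the 3 arrays. Levels are log2 intensities after background and dye correction, and they are compared within a probe only.

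The probe of Dido1 variant 2, known as the Dido2 transcript, rose 11.6-fold in mutant+CT embryoid bodies. Its levels were 10.00, 10.16 and 10.65 in mutant+CT on replicates 1 to 3, against 6.59, 6.63 and 6.995 in wild type. All mutant+CT levels lay far above every wild-type level, and the spread within either group was small. The log2 ratio was 3.42, 3.53 and 3.66 on the 3 arrays, or 3.53 ± 0.12 (SD, n = 3, limma adjusted p = 0.0435, 95% interval 2.995 to 4.07), and 17 of 26317 kept probes had a ratio at least that high, itself included. Before any correction, the mean spot signal was 1088, 1135 and 1699 in mutant+CT over local backgrounds of 44, 30 and 45.5, against 66.7, 119.9 and 136 in wild type over 42, 49 and 38. In wild type this probe was thus close to its local background, though marked as well above it on every array. With Agilent's own processed signals the ratio was 5.00 (limma adjusted p = 0.0163). The call ended without replicate 2 (limma adjusted p = 0.0901), without replicate 3 (0.121), with a dye term (0.116) and with no filter on dim probes (0.104), while the ratio stayed at 3.54, 3.47, 3.53 and 3.53.

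Variant 1, known as the transcript of the short Dido1 protein, ran the other way. Its probe had levels of 6.92, 9.25 and 8.25 in mutant+CT on replicates 1 to 3, against 10.77, 10.65 and 10.18 in wild type. Every mutant+CT level was below every wild-type level, with wild type tight and mutant+CT spread over more than 2 log2 units. The ratio was -3.85 on replicate 1, -1.40 on replicate 2 and -1.93 on replicate 3, a mean of -2.39 ± 1.29 (SD, n = 3), and did not pass over all kept probes (limma adjusted p = 0.115, 95% interval -3.65 to -1.13). It was -1.67 without replicate 1 (limma adjusted p = 0.116) and -2.99 with Agilent's processed signals (0.0936). Mean spot signals were 146, 609 and 337 in mutant+CT and 1396, 1712 and 1340.4 in wild type.

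The shared probe matches the RefSeq transcripts of all 3 variants, and what part of each it reads was not tested. Its levels were 8.71, 9.71 and 9.36 in mutant+CT, against 7.18, 7.55 and 7.67 in wild type. The groups did not overlap. Mean spot signals were 453, 835 and 709 in mutant+CT over local backgrounds of 39, 35 and 44. In wild type they were 101, 209 and 216 over 33, 50 and 32. The probe was thus dim in wild type, though marked as well above background on every array. The ratio of 1.79 ± 0.33 (SD, n = 3) had a limma adjusted p of 0.0645 (95% interval 1.19 to 2.40), which does not pass. The adjusted p was 0.0317 with Agilent's processed signals, 0.0449 with a trended and robust variance prior and 0.0188 in a separate-channel fit, and the ratio was then 2.34, 1.79 and 1.79. For variant 3, known as the Dido3 transcript, the probe was bright in both groups, with levels of 12.20, 12.43 and 13.18 in mutant+CT and 12.21, 10.85 and 12.44 in wild type. These groups overlapped. Its ratios of -0.01, 1.58 and 0.74 gave a mean of 0.77 ± 0.80 (SD, n = 3, limma adjusted p = 0.361, 95% interval -0.11 to 1.65), so a higher level by up to 1.65 and no difference are both within the interval.

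**Figure D1:**
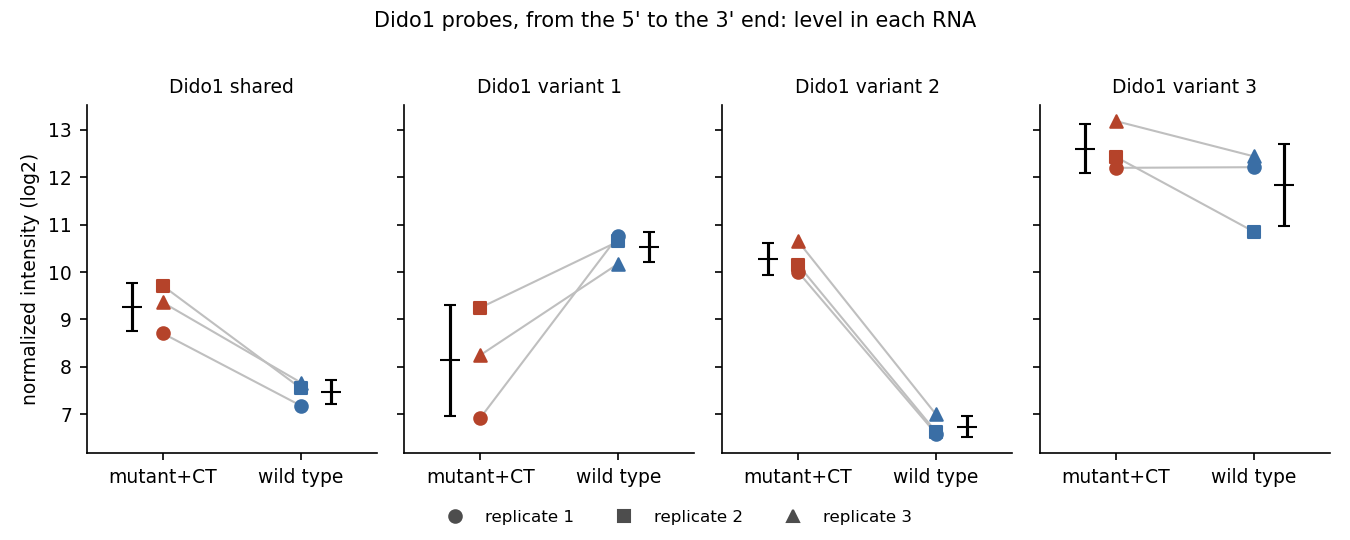
Level of each Dido1 probe (log2 intensity) in mutant+CT (red, left) and wild-type RNA (blue, right), 1 symbol per replicate, with lines joining the RNAs of an array and bars for mean ± SD (n = 3). Levels should be read within a panel: mutant+CT lies above wild type at the shared and variant 2 probes, below it at variant 1, and the groups overlap at variant 3.

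Whether the 4 probes moved apart was tested within the gene, with limma's diffSplice, which sets each probe's ratio against the mean ratio of the other probes of its gene. It treats the probes as independent, although all 4 were read on the same 3 arrays, so its p-values leave out that pairing. Dido1 passed as a gene with F = 38.0 (adjusted p = 0.00239), where 1.8% of 4886 genes with at least 2 kept probes passed, and it ranked 7 by p. Variant 1 differed from the mean of the other probes by -4.43 log2 units (adjusted p = 0.00169), and variant 2 lay 3.48 above it (adjusted p = 0.00669), where 1.76% of 10937 probes passed. The shared probe (1.16, adjusted p = 0.340) and variant 3 (-0.21, adjusted p = 1.00) did not pass. Without replicate 3 the differences were -4.66 for variant 1 and 3.47 for variant 2, but neither passed (adjusted p = 0.100 and 0.167), nor did the gene (F = 19.8, adjusted p = 0.107). With a dye term the gene had F = 39.3 and did not pass (adjusted p = 0.0539), while variant 1 (-4.28, adjusted p = 0.0396) and variant 2 (3.30, adjusted p = 0.0425) did.

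Between variant 2 and variant 1 the log2 ratios were 7.26, 4.93 and 5.59 apart on replicates 1 to 3, with a mean of 5.93 ± 1.204 (SD, n = 3), over 10257 bases of genome. That is the widest distance between the probes of any of the 4886 genes. The next widest was 4.78, the median was 0.31, and 5 genes passed 4 log2 units. Dido1 came first in each of 12 alternatives as well, with a distance of 5.26 to 7.99. Variant 3 lay 3.16 ± 0.60 above variant 1 and differed by -2.76 ± 0.75 from variant 2, and variant 1 minus the shared probe came to -4.19 ± 1.03 (SD, n = 3). Each of these differences had the same sign on all 3 arrays. Dido1 has 4 probes where many genes have 2, and more probes give more room for a wide distance.

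**Figure D2:**
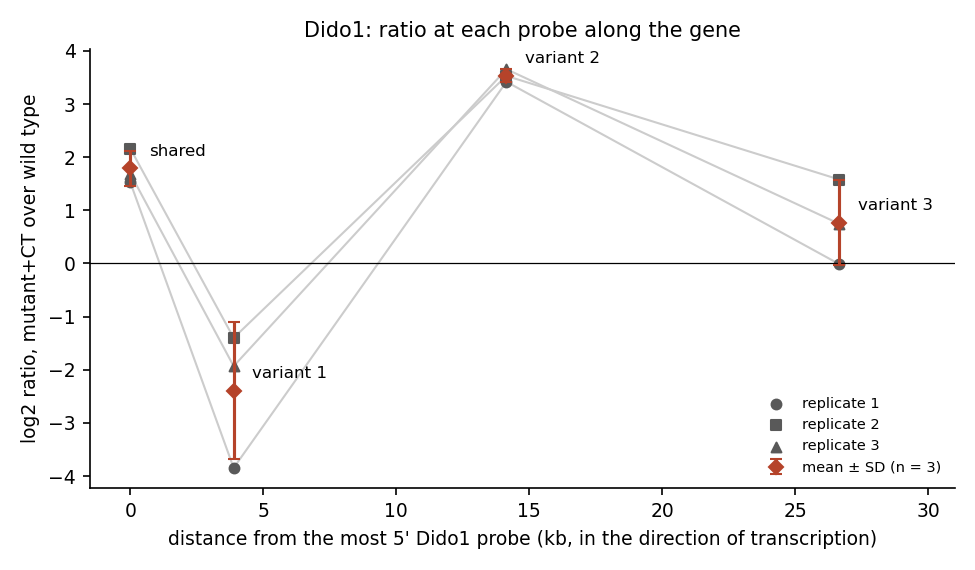
Log2 ratio of mutant+CT over wild type at the 4 Dido1 probes against their distance in kb from the most 5′ one, with 1 symbol per replicate and mean ± SD (n = 3, red diamonds). The ratio is 1.79 at the shared probe, -2.39 at variant 1, 3.53 at variant 2 and 0.77 at variant 3.

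**Figure D3:**
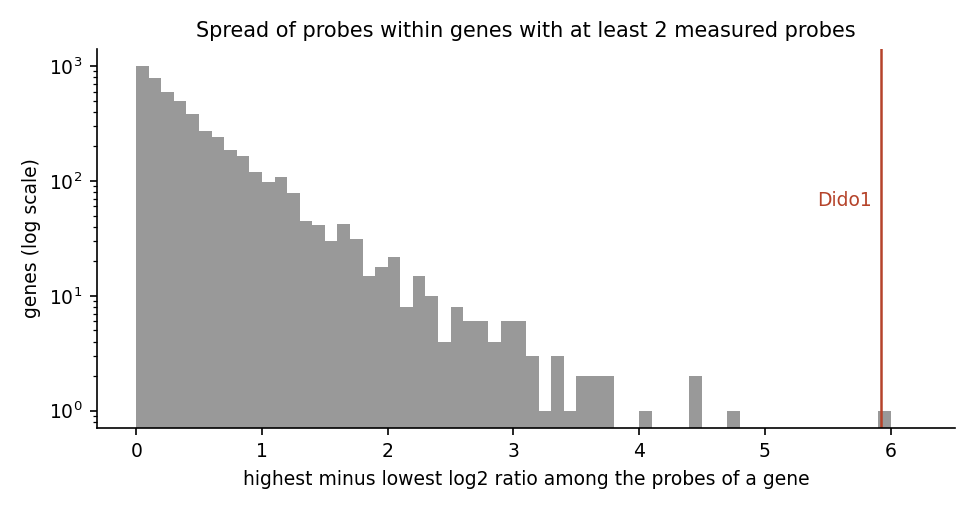
Histogram over 4886 genes of the distance between the highest and the lowest log2 ratio among a gene's kept probes, with the number of genes on a log axis. Dido1, marked by the red line, lies at 5.93 and the median gene at 0.31.

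Dyes were swapped on replicate 2, so an effect of the dye itself would show as a different ratio there. In a limma model with a dye term, the dye coefficient of the variant 2 probe was -0.004 (adjusted p = 0.995). It was 0.74 for variant 1 (adjusted p = 0.592), 0.61 for variant 3 (0.473) and 0.28 for the shared probe (0.598). Since replicate 2 is the only array of its orientation, its own difference and that of the dye are confounded.

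Neither relative with a SPOC domain gave a call. Phf3, whose protein binds the phosphorylated tail of RNA polymerase II and can compete with TFIIS, has 2 probes on chromosome 1. At chr1:30860016-30860075 its levels were 13.24, 12.66 and 12.47 in mutant+CT, against 13.22, 12.95 and 12.90 in wild type. The groups overlapped, and the ratio of -0.23 ± 0.23 (SD, n = 3) did not pass (limma adjusted p = 0.691), with a 95% interval of -0.80 to 0.34. The other Phf3 probe, A_52_P456653 at chr1:30870670-30870729, carries an Ensembl transcript alone and was not well above background in any RNA.

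Spocd1, which in mice directs DNA methylation by piRNAs in the male germ line, was not well above background in any of the 6 RNAs. Its only probe lies at chr4:129632708-129632767. Mean spot signals were 108, 59.2 and 85.5 in mutant+CT, against 59.3, 86.5 and 56.1 in wild type, over local backgrounds between 35 and 45.5. On each array the higher of the 2 signals was in Cy3, whichever group that dye held, so no fold is given.

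The TFIIS genes had ratios of both signs, and none of them passed. Tcea1, the broadly expressed form, had levels of 12.69, 12.72 and 13.15 in mutant+CT and 13.15, 12.77 and 13.23 in wild type. Its groups overlapped, and the ratio of -0.20 ± 0.23 (SD, n = 3) did not pass (limma adjusted p = 0.744, 95% interval -0.77 to 0.37). Tcea2, a form best known from testis, had 7.49, 6.95 and 6.74 in mutant+CT, against 8.84, 7.87 and 8.02 in wild type. The groups did not overlap, and the ratio was -1.36, -0.92 and -1.28 on the 3 arrays, or -1.19 ± 0.23 (SD, n = 3, limma adjusted p = 0.101, 95% interval -1.76 to -0.62). With Agilent's processed signals it was -1.90 and passed (limma adjusted p = 0.0479). Mean spot signals of Tcea2 were 207, 113 and 133 in mutant+CT over local backgrounds of 43, 39.5 and 44.5. In wild type they were 369, 233 and 279 over 39, 45 and 39.5. The probe was thus dim, though marked as well above background on every array.

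Tcea3, a form of fewer tissues that is also active in mouse embryonic stem cells, had levels of 9.52, 10.02 and 9.12 in mutant+CT, against 8.82, 8.38 and 7.54 in wild type. The lowest mutant+CT level was above the highest wild-type level. Its ratio was 0.70, 1.64 and 1.58 on replicates 1 to 3, or 1.30 ± 0.52 (SD, n = 3), and did not pass (limma adjusted p = 0.120, 95% interval 0.60 to 2.01). The probes of Tcea2 and Tcea3 are shown because the paralogs had opposite signs, and they shared no run of over 10 bases. The Tcea2 probe spans 1318 bases of genome at chr2:181419201-181420518, so its 60 bases cross an intron, while the Tcea3 probe lies at chr4:135810420-135810479:
Tcea2: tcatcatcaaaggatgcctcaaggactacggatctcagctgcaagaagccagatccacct
Tcea3: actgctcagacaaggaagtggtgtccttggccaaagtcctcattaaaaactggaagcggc

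**Figure D4:**
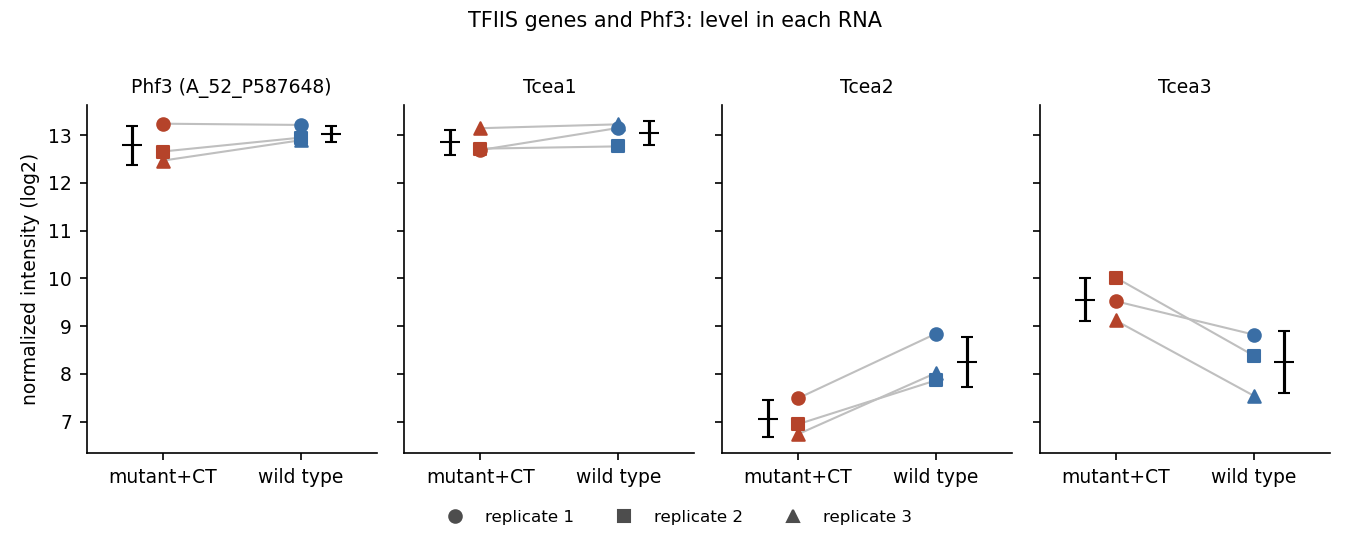
Level (log2 intensity) of the kept Phf3 probe and the 3 TFIIS genes in mutant+CT (red, left) and wild-type RNA (blue, right), with lines joining the RNAs of an array and bars for mean ± SD (n = 3). Within its panel, Tcea2 is lower in mutant+CT with no overlap, Tcea3 is higher with no overlap, and Phf3 and Tcea1 overlap.

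The machinery around these genes was read from lists of other genes, each by its brightest kept probe. With limma over all kept probes 0 members of these lists passed in either direction, where 0.245% of 20389 genes passed as higher and 0.0981% as lower. Over all genes the median ratio was -0.003, 16.1% had an unadjusted p under 0.05, 20.3% were higher on every array and 17.4% lower. Of the other SPOC genes, Spen, Rbm15 and Rbm15b, 3 of 3 were measured, with ratios between -0.16 (Rbm15) and 0.09 (Rbm15b), and 0 had an unadjusted p under 0.05. Of 8 genes with a TFIIS N-terminal domain or a related name, 7 were measured, with a median of -0.26. Psip1, a chromatin reader with such a domain, had -0.65 ± 0.15 (SD, n = 3, limma adjusted p = 0.235), the 1 member of that list with an unadjusted p under 0.05, and the Mediator subunit Med26 had 0.14 ± 0.08. That median was -0.45 without replicate 3.

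Elongation and pausing factors had a median of 0.01 over 28 measured of 32, with 5 higher and 4 lower on every array and 2 at an unadjusted p under 0.05. These were Ccnt1, the cyclin of the pause-release kinase P-TEFb, with 0.77 ± 0.26 (SD, n = 3, limma adjusted p = 0.199), and Cdk12, a kinase of the polymerase tail, with -0.89 ± 0.36 (0.177). A mean near 0 can join ratios of opposite sign. Aff4, the most variable elongation factor of the list, had 1.35, -2.28 and 1.71 on replicates 1 to 3 (0.26 ± 2.21, SD, n = 3). Subunits of RNA polymerase II had a median of 0.01 over 13 of 13. Polr2e had 0.59 ± 0.27 (SD, n = 3, limma adjusted p = 0.2997), the only unadjusted p under 0.05 of that list, and the largest subunit Polr2a had -0.38 ± 0.60. PHD finger genes that, like Dido1, read trimethylated H3 had a median of -0.01 over 14 of 16, and their 2 unadjusted p-values under 0.05 were those of Ing3 (0.65 ± 0.37, limma adjusted p = 0.284) and Ing4 (-0.87 ± 0.76, 0.294).

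Spocd1 works with other genes of the germ line, which were also listed. Of 13 piRNA and germ cell genes, 11 were measured, with a median ratio of 1.49. On every array 9 were higher and 0 lower, where 20.3% of all genes were higher on every array, and 8 had an unadjusted p under 0.05. Piwil2, a PIWI protein that binds piRNAs, had 1.21, 1.39 and 3.64 on replicates 1 to 3 (2.08 ± 1.35, SD, n = 3, limma adjusted p = 0.152). The list's median was 0.65 on replicate 1, 0.71 on replicate 2 and 2.91 on replicate 3, and it was 0.73 without replicate 3. This list holds all 5 germ cell markers used below, of which 4 were measured with a median of 1.21, and the part of germ cells in its ratios was not tested. Spocd1 itself was not well above background beside them.

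**Figure D5:**
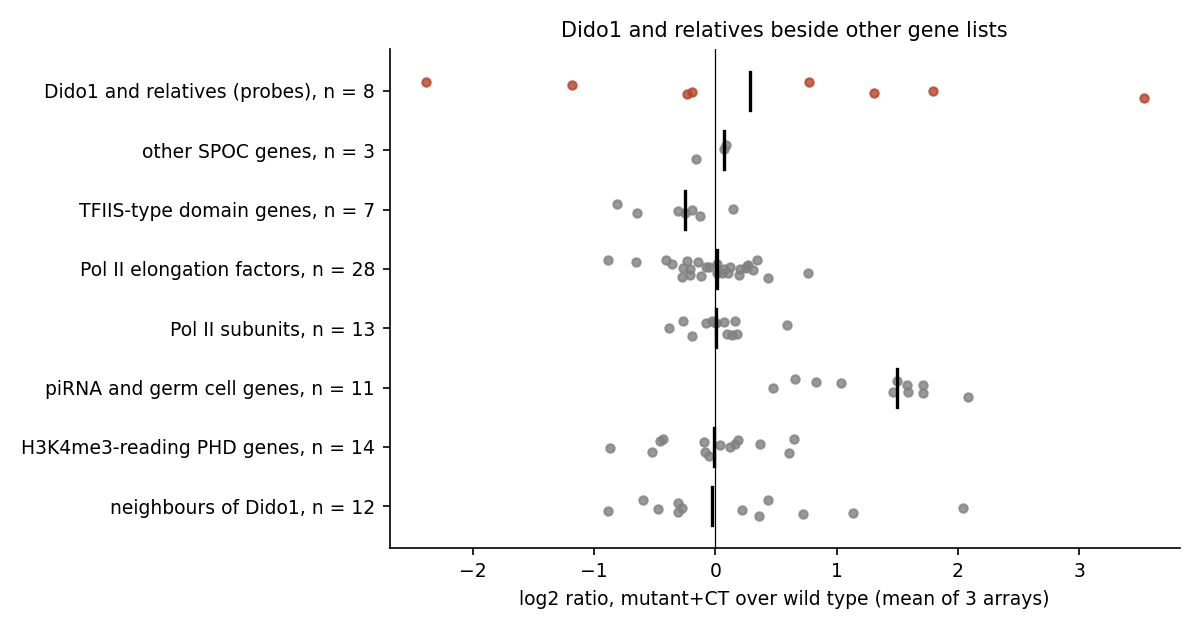
Log2 ratio of mutant+CT over wild type (mean of 3 arrays) for the 8 kept probes of Dido1 and its relatives (red) and for the genes of each other list (grey), with medians as black bars. The member probes run from -2.39 to 3.53, the means of polymerase and elongation genes gather near 0, and piRNA and germ cell genes have a median of 1.49. Differences between arrays are not shown.

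The genome around Dido1 was read as well, over 15 other genes with a probe within 250 kb of a Dido1 probe on chromosome 2. Of these, 12 were measured, with a median ratio of -0.03, 5 higher and 1 lower on every array, 2 with an unadjusted p under 0.05, and 0 called by limma. The shares over all genes are 20.3% higher, 17.4% lower and 16.1% with an unadjusted p under 0.05. The count of 2 of 12 is near its share, while 5 of 12 higher is above its share and 1 of 12 lower is below. Whether position plays a part was not tested. Distances were taken between the start coordinates of probes, not between genes. The nearest on the 5′ side was Gid8, a subunit of the CTLH ubiquitin ligase, 33.3 kb away, with 0.43 ± 0.61 (SD, n = 3, limma adjusted p = 0.551). The nearest on the 3′ side was Tcfl5, a transcription factor known from testis, 35.7 kb away, with 1.39, 1.81 and 2.94 on the 3 arrays (2.05 ± 0.80, SD, n = 3, limma adjusted p = 0.0863). Its probe runs from 180357383 to 180369981, so its near end is closer than that.

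Likeness to the Dido1 probes was measured as the Euclidean distance between the 3 log2 ratios of a gene and those of the probe, over 20388 other genes and 3 arrays. Nearest to the variant 2 probe were Tmem245 (distance 0.60), the placental cathepsin Ctsj (0.66) and Rest, a repressor of neuronal genes (0.66). Nearest to variant 1 were Lama1, a laminin of basement membranes (0.39), Lmx1a, a homeobox gene of the brain's roof plate and midbrain (0.42), and Lamc1, another laminin (0.78). The shared probe had Cit, the citron kinase (0.15), and the phosphatase Ptpn21 (0.34) among its nearest 3, the other being an unnamed expressed sequence (0.24). For variant 3 the nearest were BC147527 (0.16), Arhgef6 (0.19) and Gm10451 (0.20).

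Most measured markers of naive pluripotency, visceral endoderm, neural progenitors and germ cells had the same sign on every array. Limma called 0 of the cell type markers, and their part in the Dido1 and Tcea ratios was not tested. Of the naive pluripotency, visceral endoderm and neural progenitor markers, 7, 5 and 5 had an unadjusted p under 0.05, against 16.1% of all genes, of which 20.3% were higher and 17.4% lower on every array. All 10 naive pluripotency markers were measured and 8 were higher on every array (median 1.83), with mean log2 intensities of 11.96 to 13.44 in mutant+CT and 10.66 to 11.21 in wild type. The exceptions were Nanog (0.09 ± 0.09) and Klf4 (-0.68 ± 1.01, SD, n = 3). The Nanog probe was dim, with mean log2 intensities of 6.83 in mutant+CT and 6.74 in wild type, so low signal limits its ratio. All 6 neural progenitor markers were measured and 5 were lower on every array (median -3.15), with 7.20 to 7.76 in mutant+CT and 8.56 to 11.96 in wild type. Visceral endoderm markers were higher on every array for 7 of 7 (median 1.13), with 13.09 to 14.70 in mutant+CT and 11.55 to 13.36 in wild type. Of 5 germ cell markers 4 were measured, without Nanos2, and 3 were higher on every array (median 1.21), with 9.04 to 11.23 in mutant+CT and 8.36 to 9.98 in wild type. Cardiomyocyte markers (5 of 6 measured, without Nppa) had medians of 3.79, -0.87 and -0.73 on replicates 1 to 3, and endothelial markers (5 of 5) 1.23, -1.25 and -0.98, so replicate 1 stood apart. Replicate 2 did so for neural progenitor markers (-4.03, -1.64 and -4.15) and replicate 3 for naive pluripotency markers (1.10, 0.56 and 3.07). Dido1 variant 1 had -3.85, -1.40 and -1.93 on replicates 1 to 3, so it was most extreme on replicate 1. It was negative on every array, as the neural progenitor medians were, and a link to either pattern was not tested. Mean log2 intensities ran from 8.79 to 12.74 in mutant+CT and 9.25 to 9.61 in wild type for cardiomyocyte markers, and from 7.94 to 9.85 in mutant+CT and 8.55 to 8.85 in wild type for endothelial ones. Without replicate 1 the ratio of variant 2 was 3.59.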

How the data were processed

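Spot intensity values were deposited as scanner text, made with version 10.7.3.1 of Feature Extraction per the file headers: a mean signal and a median local background per dye, Agilent's own processed signals, and a log10 ratio of the dyes, which was not used. A table of log2 ratios was also deposited, and the submitters' processing notes name limma. Its columns had medians of -0.02, 0.01 and -0.01. Against the ratios computed here their slopes were 1.03, 0.97 and 0.97, so they read mutant+CT over wild type, and their exact normalization is unknown.

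Per the labels, 1 µg of total RNA was amplified, and 300 ng of cRNA per dye was hybridised. The software was limma 3.58.1 and statmod 1.5.0 under R 4.3.3. Normexp (offset 50) removed background, and loess, with control spots at weight 0, removed the dye trend. Outlier spots (454, 234 and 507) were left out and spots of a probe averaged. A probe was kept when well above background on all 3 arrays in either group. Moderated tests of the mean log2 ratio (lmFit, eBayes) were adjusted by Benjamini-Hochberg over the 26317 kept probes, and an adjusted p under 0.05 was called. Probes within genes were compared with diffSplice. For channel levels, average intensities were quantile-normalized between arrays. Between 68.1% and 78.5% of spots per channel were well above background and 0 were saturated. The number of arrays limits the precision. RefSeq accessions (GRCm38.p6, names alone) gave gene names where they matched (27234 of 39429 probes), and the files' names served otherwise.

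Named are all member probes, each list's smallest p in either direction, the nearest measured neighbours of Dido1 and the 3 genes most like each of its probes. Rbm15b, Tdrd9, Nanog, Klf4 and Aff4 are named beside these, after their values were seen. Members and lists were chosen with earlier results of these data known. The steps were tested on simulated data. The closing section gives the alternatives.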

Additional observations from a re-analysis of the deposited data

How the results depend on the processing

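Signs of the ratios of the 8 kept member probes held in every alternative run. The number of member probes called, 1 of 8, was 3 with Agilent's processed signals (shared, variant 2 and Tcea2), 2 with a trended and robust variance prior and in a separate-channel fit (shared and variant 2), 0 with a dye term and with no filter, and 0 to 1 when 1 replicate was left out (limma). The cause of these changes was not tested. Of all kept probes, 115 were called, and 739 with processed signals, 776 in the separate-channel fit, 469 with the trended prior, 46 with arrays scaled to the same spread, 40 with median centring, 16 with no background subtraction, 0 with no filter or a dye term, and 0 to 125 when 1 replicate was left out. At an unadjusted p under 0.05 there were 4346 in limma. Adjusted over genes by their brightest probe, an alternative added after the data were seen, 0 were called (smallest adjusted p = 0.0618). Probes called against the rest of their gene numbered 192, 111 with a dye term and 5 to 99 with 1 replicate left out. List members called were 0, and 1 with processed signals (Tdrd9, 1.96, limma adjusted p = 0.0478). With 1 replicate left out, list medians ran from -0.45 to -0.20 for TFIIS-type domain genes, from -0.0898 to 0.00851 for elongation factors and from -0.0483 to 0.0847 for PHD finger genes. All tests on ratios are paired analyses in that each ratio sets the RNAs of 1 replicate against each other on 1 array. For tests of a single probe, no further replicate block can be added. The tests of probes within a gene had no term for the array, although the probes of a gene share the arrays. Low signal limits Spocd1 and the dim Phf3 probe, which give no ratio. It also limits the ratios of Tcea2, which was dim, and of the shared Dido1 probe, which was dim in wild type. The same holds for Dido1 variant 2, which was close to background in wild type.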
